A study of Rattus norvegicus with 24 samples.

Results

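Ascorbic acid plus 1 Gy of radiation (AGy) was compared with no treatment (C) in rat neurospheres (NSps), by bulk RNA sequencing of 4 AGy samples (MO21 to MO24) and 3 C samples (MO1, MO3 and MO4). These are 7 of the 24 samples of the series, which holds 4 samples in each of 6 groups, and the members were chosen by group alone. A control sample, MO2, was left out as in the study. NSps were free-floating clusters of neural progenitor cells from the brains of E15 Sprague Dawley rat fetuses, described as a brain primary cell line, kept in medium with epidermal and fibroblast growth factors. AGy samples had 200 µM ascorbic acid before and after irradiation and 1 Gy of X-rays on day 3 after seeding, while C samples had neither. The study's results place RNA extraction 7 days after irradiation, but its methods give at most 7 days of culture, so the time is uncertain. Since AGy differs from C by both agents, the comparison alone does not separate them. Values are given beside it for 200 µM ascorbic acid alone (A) and 1 Gy alone (CGy), and in places for 5 µM Noggin, an antagonist of bone morphogenetic proteins, alone (N) or with 1 Gy (NGy). Whether the samples of a group came from separate cultures or litters is not stated, so p-values measure the spread between these samples, which may be technical.

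Ascorbic acid, or vitamin C, scavenges reactive oxygen species and keeps the iron of dioxygenases in its reduced form, among them the hydroxylases that act on collagen, on hypoxia-inducible factor and on methylated DNA and histones. X-rays break DNA directly and through the reactive oxygen species they form, and neural progenitor cells respond with cell cycle arrest, death or differentiation. The question of the comparison is how far the transcriptome of irradiated NSps under ascorbic acid lies from that of NSps that received neither.

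The files give each gene as a rat Ensembl identifier and pair none of the 16478 identifiers with a gene name, and 0 of them could be matched to the RefSeq reference list (GRCr8). No gene, pathway or cell type marker could therefore be named or checked, and no sequence is shown. The results are given by counts over genes and for 4 genes by identifier. Expression was in TPM, as deposited, the length-normalised abundance of a gene's transcripts scaled to a fixed total per library, and differences are in log2(TPM + 1), AGy less C, a scale on which the fold change of weakly expressed genes is understated. How many reads lie behind a value is unknown, because TPM keep no counts.

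No gene passed the test in the TPM as deposited. Of 9837 genes whose mean reached 1 TPM in AGy or C, 0 (0%) reached a Benjamini-Hochberg adjusted p of 0.05 with a 1.5-fold change in limma's moderated test, and the smallest adjusted p was 0.0889. An unadjusted p under 0.05 was reached by 1304 genes (13.3% of those tested), 775 higher (7.88%) and 529 lower (5.38%) in AGy. The samples of AGy and C did not overlap for 1312 genes (13.3%), of which 766 were higher (7.79%) and 546 lower (5.55%) in AGy. In the bulk RNA of NSps, a change in the RNA of each cell and a change in the number of cells of a type cannot be told apart.

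The differences between the group means were small for most genes. The quartiles of the difference over all genes tested were -0.12 and 0.18 on the log2 scale. The group means were at least 1.5-fold apart for 576 genes, 359 higher and 217 lower in AGy. Of these, 160 of the higher and 91 of the lower genes had samples that did not overlap, beside 7.79% higher and 5.55% lower of all genes tested. Genes taken for means far apart overlap less by that choice alone. At least 2-fold differences were found in 71 genes higher and 39 genes lower in AGy. The median standard error of a difference was 0.14 on the log2 scale, against a median absolute difference of 0.15, so that the typical difference was about as large as its error. The group means had a root mean square difference of 0.299.

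The direction of these counts depended on the scaling. The genes listed summed to 643344 to 655289 TPM in the 4 AGy samples and to 617969 to 627580 TPM in the 3 C samples, so that AGy samples held more TPM in the listed genes. With each sample rescaled to the same total of TPM, 10409 genes reached the minimum of 1 TPM, and the 1310 of them with an unadjusted p under 0.05 were 552 higher and 758 lower in AGy, with a median difference of -0.01 on the log2 scale over the genes tested, against 0.03 over the 9837 genes before. With quantile normalization, which kept the 9837 genes, there were 660 higher and 797 lower. The more frequent direction among genes with an unadjusted p under 0.05 thus differed between the scalings.

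Larger differences were more frequent among genes of low expression. The group means differed by at least 1.5-fold in 14.7% of the 1621 genes with a mean under 3 TPM, in 8.41% of the 2189 genes with 3 to 10 TPM, in 3.47% of the 2857 genes with 10 to 30 TPM, in 1.86% of the 2260 genes with 30 to 100 TPM and in 1.32% of the 910 genes with 100 TPM or more. The median standard error fell over the same classes from 0.21 to 0.12 on the log2 scale. The share of genes whose groups did not overlap moved much less, from 12.3% in the lowest to 14.5% in the highest class. The higher sum of TPM in AGy lay mainly in the highest class, where the genes summed to a mean of 456589 TPM in AGy and 436270 TPM in C.

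**Figure D1:**
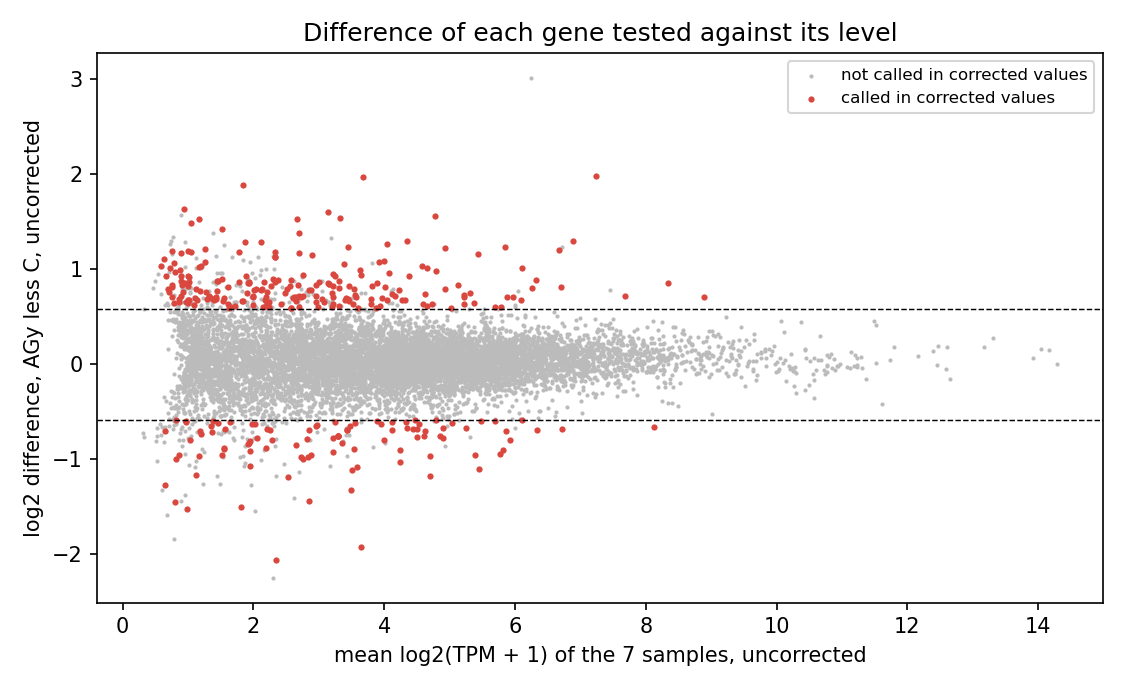
Log2 difference of AGy less C (vertical axis, uncorrected values) against the mean log2(TPM + 1) of the 7 samples (horizontal axis) for each of the 9837 genes tested. Dashed lines mark a 1.5-fold change and red points the 315 genes called after the batch correction; the spread is widest at low expression, where 14.7% of genes under 3 TPM passed the 1.5-fold lines.

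The 7 samples were set apart by group only weakly before the batch correction. Distance here means the root mean square of the differences of a pair of samples in log2(TPM + 1), over all genes tested. The mean distance was 0.475 for pairs of 1 AGy and 1 C sample and 0.417 for pairs of the same group, a difference of 0.0578 (exact permutation test, one-sided, p = 0.0286, the smallest value that 35 splits allow). With MO2 included the difference was 0.0436 (exact permutation test, one-sided, p = 0.114). AGy samples MO22, MO23 and MO24 lay 0.311 to 0.364 from one another, and MO21 lay 0.387 to 0.434 from them. C samples MO1 and MO3 lay 0.374 apart, and MO4 lay 0.512 from MO1 and 0.594 from MO3. MO4 was closer to the AGy sample MO21, at 0.403, than to either of the other C samples.

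Among all 23 samples without MO2, the nearest sample to MO4 was MO21 (0.405, over 10134 genes) and the next was MO9 of group A (0.415). The nearest samples to the other C samples were of the Noggin group (N), MO5 for MO1 and MO7 for MO3. Of the AGy samples, MO21, MO22 and MO23 were nearest to another AGy sample, and MO24 was nearest to MO12 of group A (0.354). All 4 AGy samples were on average nearer to the A samples, at 0.403 to 0.435, than to the C samples, at 0.459 to 0.493, or the CGy samples, at 0.469 to 0.596. The labels number the AGy samples 32, 946, 970 and 994, the C samples 25, 1003, 1027 and 1051 and the A samples 26, 934, 958 and 982. What these numbers stand for is not stated, and the columns of the files could not be tied to them, so an effect of the numbering and that of the treatment cannot be told apart.

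**Figure D2:**
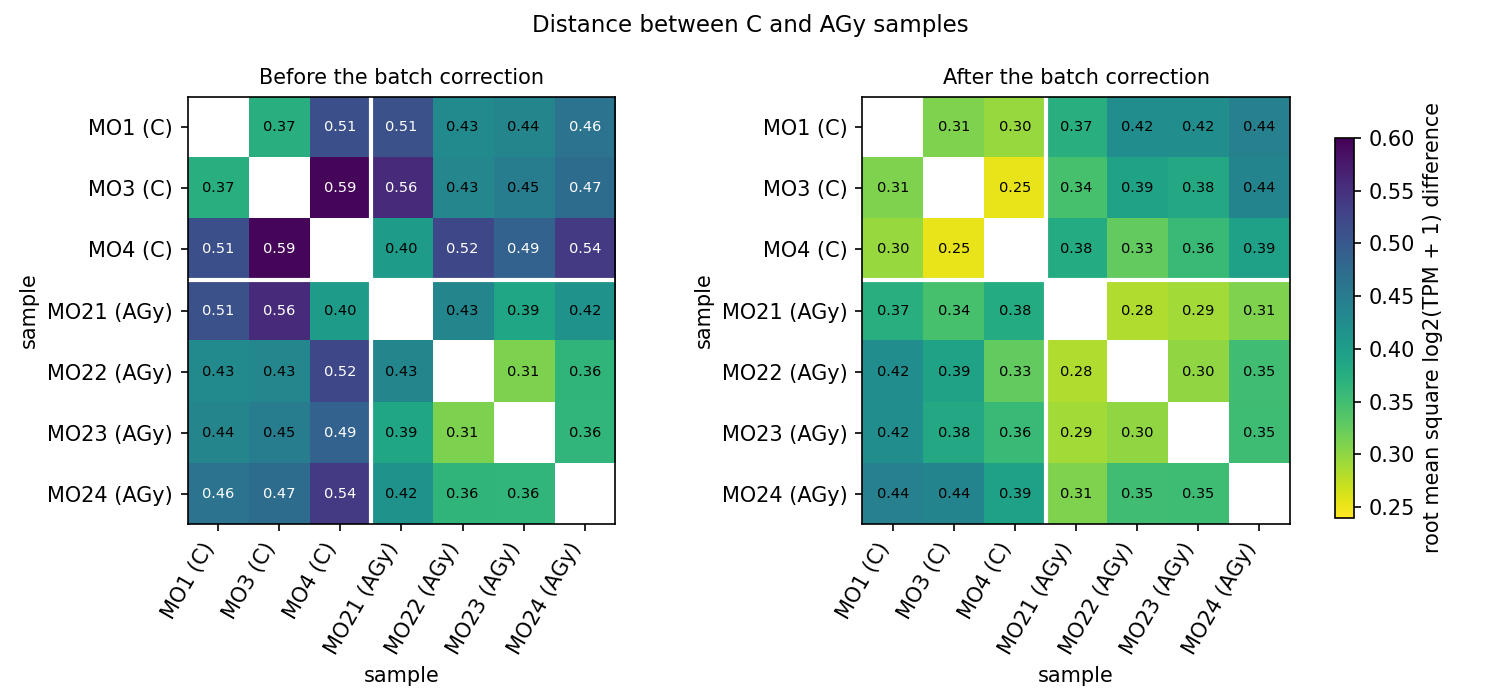
Distance (root mean square of the log2(TPM + 1) differences) between each pair of the 3 C and 4 AGy samples, before (left) and after (right) the batch correction. Before it, MO4 of group C lay 0.403 from MO21 of AGy and 0.512 and 0.594 from the other C samples; after it, the 3 C samples lay 0.251 to 0.309 apart.

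In the principal components of the uncorrected values, PC1 held 36.8% of the variance and did not separate the groups: the C samples lay at -26.3 (MO3), -14.9 (MO1) and 28.6 (MO4), and the AGy samples between -6.46 and 21.8. PC2 held 24.6% and placed the 3 C samples between -19.8 and -11.2 and the 4 AGy samples between 6.18 and 18.3. The genes for which a single sample made the groups overlap were counted for each sample. MO4 alone did so for 2012 genes, more than MO3 (797), MO21 (789), MO22 (441), MO1 (421), MO23 (319) or MO24 (261). The count of 1304 genes with an unadjusted p under 0.05 moved with the samples: it was 1921 without MO4, 853 without MO1 and between 935 and 1305 without any one of the others, and with MO2 included it was 665 (520 higher and 145 lower in AGy).

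**Figure D3:**
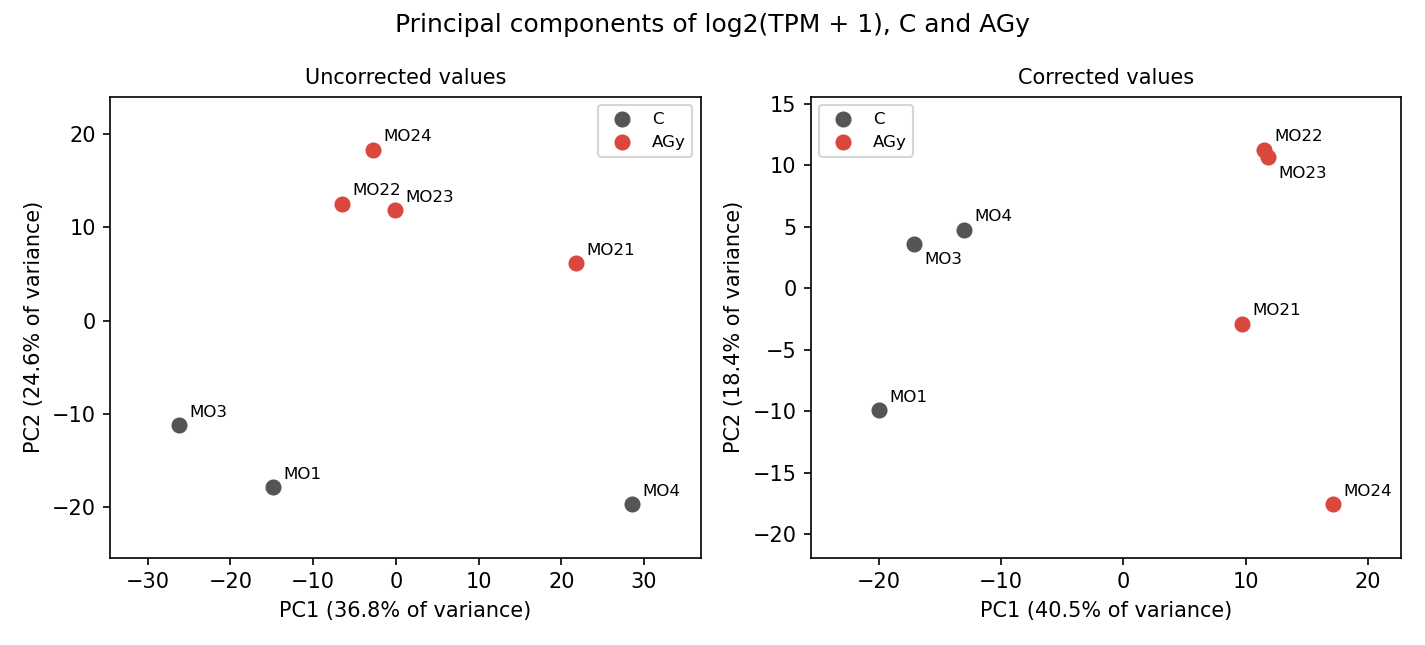
First and second principal components of log2(TPM + 1) for the 3 C and 4 AGy samples, over the genes tested, centred and not scaled. In the uncorrected values (left) the groups overlapped on PC1 and not on PC2; in the corrected values (right) they did not overlap on PC1, which held 40.5% of the variance.

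Fewer genes of the listed set were at 0 TPM in AGy than in C. The depth of the samples is unknown and could not be taken into account. Genes listed at 0 TPM numbered 3572 to 3689 in the 4 AGy samples and 3856 to 3986 in the 3 C samples. The sum of TPM and the number of genes at 0 did not overlap between the groups. Each had an exact permutation p of 0.0286 (two-sided, 35 splits), which became 0.0714 when adjusted over the 5 measures compared. A samples had 3539 to 3898 genes at 0 and a sum of 615330 to 622464 TPM, and CGy samples had 3645 to 3823 genes at 0 and a sum of 622007 to 649751 TPM. NGy samples had 3654 to 3796 genes at 0 and a sum of 650049 to 655264 TPM, so AGy was not alone in these values. N samples had 3892 to 4042 genes at 0 and a sum of 615930 to 628348 TPM. The number of genes with at least 1 TPM (9618 ± 102 in AGy, SD, n = 4, and 9496 ± 21.6 in C, SD, n = 3) and the share of TPM in the 100 highest genes (41.9% ± 1.60 and 41.7% ± 1.36) overlapped between the groups. Few of the genes at 0 in one group reached expression in the other: 9 genes listed at 0 in all 3 C samples had a mean of at least 1 TPM in AGy, of which 1 was above 0 in all 4 AGy samples, and 3 genes showed the reverse, of which 1 was above 0 in all 3 C samples.

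The 4 genes described by identifier were those with the largest rises and falls of the mean among genes with at least 5 TPM in AGy or C whose samples did not overlap. None of them passed the test in the uncorrected values. Such genes numbered 607 higher and 442 lower in AGy, and the 10th largest differences were 1.21 and -1.17 on the log2 scale. Over all 9837 genes tested, without the minimum of 5 TPM, 7.79% were higher and 5.55% lower without overlap.

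ENSRNOG00000043098 had 278, 293, 317 and 210 TPM in the AGy samples MO21 to MO24, against 81.9, 35.3 and 110 TPM in the C samples MO1, MO3 and MO4. All AGy samples lay above these C samples. In MO2, the control left out, the gene had 169 TPM, also below all AGy samples. With MO2 included the log2 difference was 1.65 (adjusted p = 0.511, limma). The mean was 275 ± 46.0 TPM (SD, n = 4) in AGy and 75.6 ± 37.6 TPM (SD, n = 3) in C, a log2 difference of 1.98 (standard error 0.36, adjusted p = 0.141, limma). A samples had 129 ± 20.8 TPM (SD, n = 4), above C on average but overlapping it, with a difference from C of 0.90 (standard error 0.36, adjusted p = 0.377, limma). CGy samples were divided, with 139 and 133 TPM in MO13 and MO14B and 34.8 and 36.1 TPM in MO15 and MO16. NGy samples were divided too, with 87.1 and 126 TPM in MO17 and MO18 and 19.5 and 25.8 TPM in MO19 and MO20. The gene was higher in AGy than in CGy by 1.94 on the log2 scale (standard error 0.48, adjusted p = 0.036, limma) and differed from A by 1.08 (standard error 0.16, adjusted p = 0.129, limma). These contrasts share the AGy samples with that against C.

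The largest difference of these genes was that of ENSRNOG00000021151, and it rested on 1 sample. The gene had 206, 200.02, 194 and 142 TPM in the AGy samples MO21 to MO24 and 139 and 85.2 TPM in MO3 and MO4, but was listed at 0 in MO1. Of all genes tested, it was the only 1 listed at 0 in a single sample with at least 5 TPM in the other 6. The log2 difference was 3.01 (standard error 1.56, adjusted p = 0.453, limma), and without MO1 it was 0.75 (adjusted p = 0.467, limma). The gene was also listed at 0 in MO9 of group A and MO14B of group CGy, whose other samples had 94.3 to 209 TPM and 163 to 180 TPM. With Noggin, it was at 0 in MO17 (NGy) and at 0.004 and 0.03 TPM in MO5 and MO8 (N). The other N and NGy samples had 13.3 to 142 TPM. In MO2, the control left out, it had 173 TPM, above MO24, so the groups overlap for this gene with MO2 included.

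ENSRNOG00000010972 had the largest fall of the mean, with 1.70, 2.25, 2.31 and 0.959 TPM in the AGy samples against 16.1, 11.7 and 5.86 TPM in MO1, MO3 and MO4. MO4 was the C sample nearest to AGy. The log2 difference was -2.06 (standard error 0.32, adjusted p = 0.122, limma), with means of 1.80 ± 0.625 TPM (SD, n = 4) and 11.2 ± 5.13 TPM (SD, n = 3). A samples lay at 5.31 ± 3.01 TPM and CGy samples at 6.02 ± 4.97 TPM (SD, n = 4 each), and both groups overlapped C and AGy. MO12 of group A had 2.25 TPM. CGy samples were divided, with 8.38 and 11.9 TPM in MO13 and MO14B and 1.26 and 2.59 TPM in MO15 and MO16.

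ENSRNOG00000006116 followed the same order, with 7.18, 7.91, 6.53 and 3.59 TPM in the AGy samples against 41.0, 24.6 and 17.1 TPM in MO1, MO3 and MO4. The log2 difference was -1.93 (standard error 0.33, adjusted p = 0.134, limma). A samples had 14.1 ± 3.29 TPM (SD, n = 4), above all AGy samples, with a difference of AGy from A of -1.07 (standard error 0.23, adjusted p = 0.164, limma). CGy samples again fell into pairs, with 34.2 and 34.1 TPM in MO13 and MO14B and 6.82 and 8.16 TPM in MO15 and MO16. So did NGy samples, with 19.1 and 23.8 TPM in MO17 and MO18 and 7.01 and 9.32 TPM in MO19 and MO20. For these 4 genes, the test of the difference between the effects of radiation with and without ascorbic acid gave adjusted p-values between 0.644 and 0.992 (interaction, limma), with standard errors of 0.66 to 3.01 on the log2 scale.

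**Figure D4:**
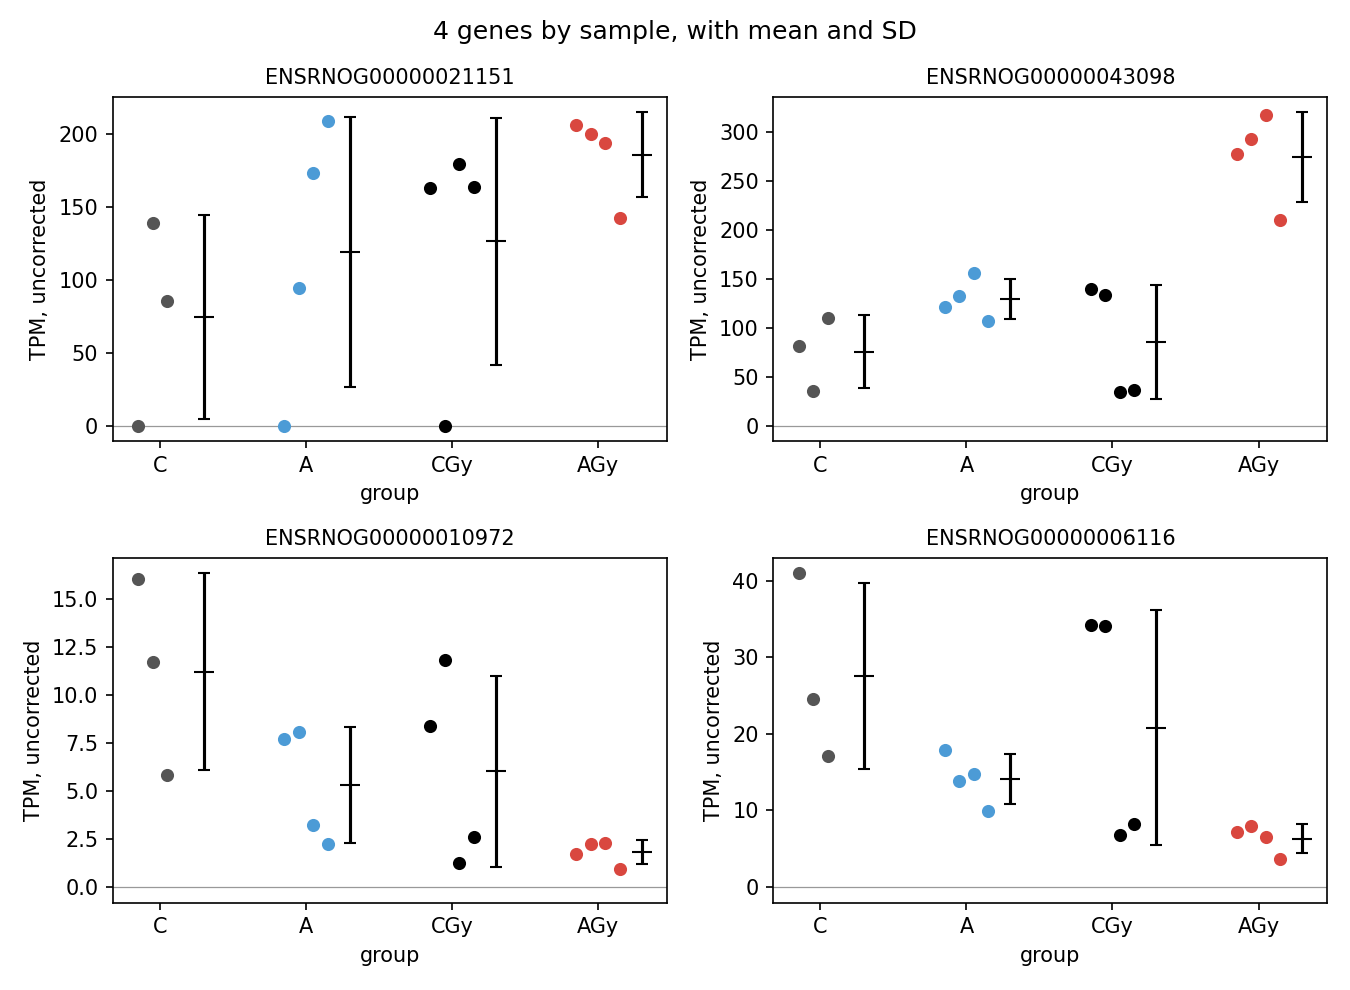
TPM before the batch correction of the 4 genes in the C, A, CGy and AGy samples, with the mean and SD of each group beside the points (n = 3 in C, 4 in the others). All AGy samples lay above all C samples in the upper panels and below them in the lower panels; ENSRNOG00000021151 was listed at 0 in 1 sample each of C, A and CGy.

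The same limma test was then run on the deposited batch-corrected table, the kind of values on which the study ran its own tests with other software. In this recount, 315 of 9817 genes (3.21%) passed both thresholds, 214 higher (2.18%) and 101 lower (1.03%) in AGy. An adjusted p of 0.05 without the fold threshold was reached by 1219 genes (12.4%). The correction leaves the group means as they were and reduces the spread within groups: of the sum of squares, 62.3% was lost within C and 26.1% within AGy. The median SD of a gene fell from 0.20 to 0.09 within C and from 0.17 to 0.12 within AGy on the log2 scale, and the median standard error of a difference from 0.14 to 0.09. The corrected values are those left when the 2 leading components of within-group variation are taken out, so the correction used the group labels, and the p-values from the corrected table do not account for this. When these 2 components were instead covariates in the fit of the 7 uncorrected samples, 1 gene passed, ENSRNOG00000043098 (adjusted p = 0.00525, limma). With all 6 groups in the fit, which takes the spread from 23 samples, 123 genes passed without the components (86 higher and 37 lower in AGy) and 340 with them as covariates. Of the 123 genes, 120 were among the 315. Both counts rest on the same group means, so much of this overlap is built in. The components came from the within-group spread of the same samples, and p-values of the fits with covariates do not account for this either.

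The 315 genes called after the correction had log2 differences of 0.59 to 1.98 where higher (median 0.79) and of -2.06 to -0.59 where lower (median -0.76). At least 2-fold differences were found in 46 of the higher and 16 of the lower genes. Their expression was lower than that of genes in general, with a median of the mean TPM of 5.50 for the higher and 8.88 for the lower genes, against 15.9 for all genes tested. Part of this is built in by the 1.5-fold threshold, which 14.7% of genes under 3 TPM and 1.32% at 100 TPM or more passed. Before the correction, 216 of the 315 genes had groups that did not overlap, beside 13.3% of all genes, and 279 had an unadjusted p under 0.05. Adjusted p-values of all 315 genes lay between 0.0889 and 0.686 there (limma). The 315 genes were chosen for their difference in these same samples, so both counts are raised by the choice and give no separate support. After the correction, none of the 315 overlapped, among 3096 genes of the corrected table (31.5%) whose groups did not overlap. When MO4 and MO21 were both left out, a choice made after the values were seen, 21 genes passed in the corrected table, 10 higher and 11 lower in AGy.

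Of the 4 genes above, 3 were called in the corrected table. Corrected TPM of ENSRNOG00000043098 was 272 ± 15.8 (SD, n = 4) in AGy and 68.8 ± 10.6 (SD, n = 3) in C (adjusted p = 0.00211, limma). ENSRNOG00000010972 (adjusted p = 0.0102) and ENSRNOG00000006116 (adjusted p = 0.0116, limma) were called lower. ENSRNOG00000021151 was not called (adjusted p = 0.172, limma), and its groups overlapped after the correction.

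The genes called after the correction were then followed, in the uncorrected values, through the groups that had only one of the agents. They were chosen for their difference between AGy and C, and the contrasts of A and CGy share the C samples, so the values are a description. Over the 214 genes higher in AGy, the median log2 difference from C was 0.79 in AGy, 0.56 in A and 0.23 in CGy, beside medians over all genes tested of 0.03, 0.03 and 0.04. The difference of AGy from A was 0.26 and that of AGy from CGy 0.53. A lay above C for 202 of the 214 genes and CGy for 143. Over the 101 genes lower in AGy, the medians were -0.76 in AGy, -0.33 in A and -0.28 in CGy, with -0.45 for AGy against A and -0.47 for AGy against CGy. Of the lower genes, A lay above C for 5 and CGy for 12.

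By sample, the mean log2 difference of the 214 higher genes from the mean of C was 0.84, 0.88, 0.83 and 0.89 in MO21 to MO24. The 3 C samples lay at 0.004 (MO1), -0.09 (MO3) and 0.09 (MO4). The group means were 0.86 ± 0.03 in AGy, 0.59 ± 0.07 in A, 0.25 ± 0.12 in CGy, 0.23 ± 0.12 with Noggin and 1 Gy (NGy) and 0.08 ± 0.13 in N (SD, n = 4 each). For the 101 lower genes the AGy samples lay at -0.91, -0.65, -0.84 and -0.96 and the C samples at 0.21, -0.002 and -0.21, so that the spread among the C samples was wider than for the higher genes. The means of the lower genes were -0.84 ± 0.14 in AGy, -0.41 ± 0.10 in A, -0.35 ± 0.33 in CGy, -0.45 ± 0.17 in NGy and 0.13 ± 0.08 in N (SD, n = 4 each).

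**Figure D5:**
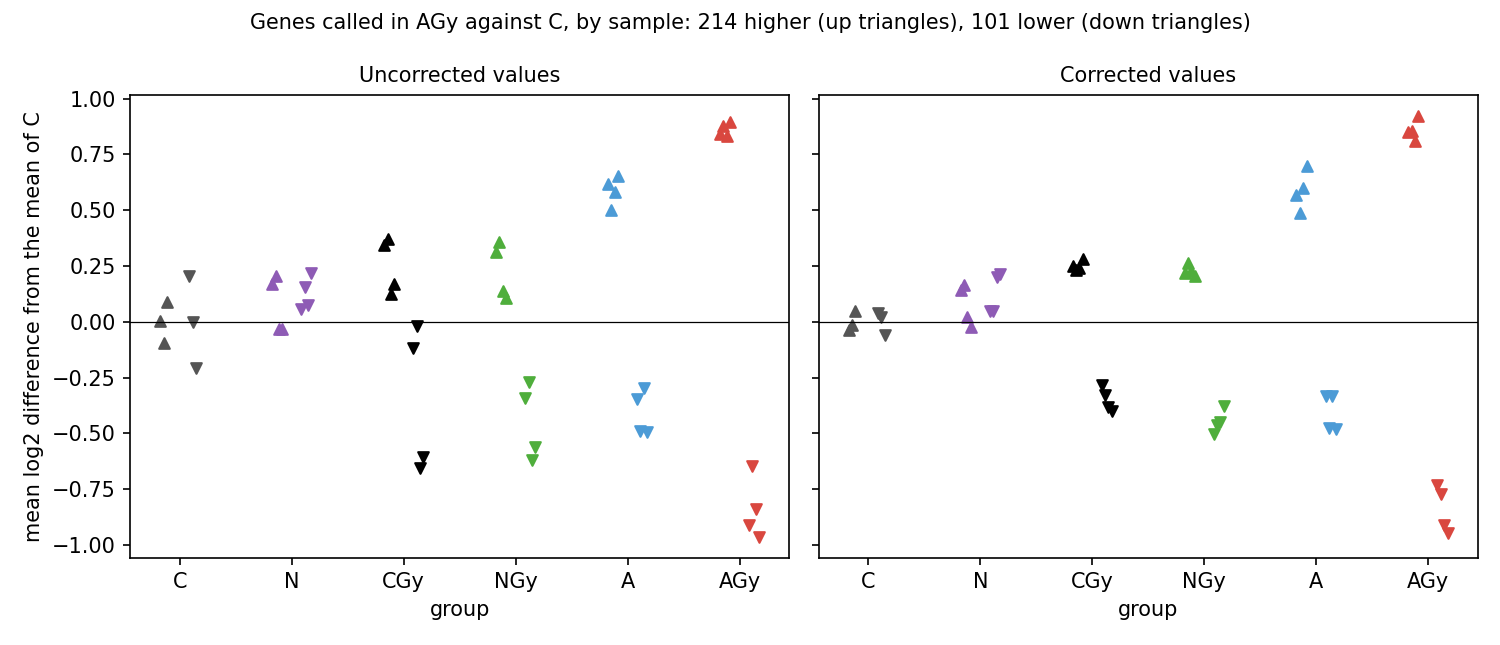
Mean log2 difference from the mean of C of the 214 genes called higher (up triangles) and the 101 called lower (down triangles) in AGy after the batch correction, 1 point per sample, in uncorrected (left) and corrected (right) values. The genes were chosen for the gap between AGy and C; A lay at a mean of 0.59 for the higher genes and at -0.41 for the lower genes in the uncorrected values, between C and AGy.

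Over all 10134 genes expressed in any group, the root mean square difference of group means was 0.298 for AGy against C, 0.289 for A against C, 0.339 for CGy against C, 0.245 for AGy against A and 0.370 for AGy against CGy. The genes with an unadjusted p under 0.05 numbered 1304 (13.3%) in AGy against C, 1194 (12.1%) in A against C and 1433 (14.6%) in CGy against C, of which 0, 2 and 2 genes passed both thresholds (limma, uncorrected values). Of the contrasts without C samples, AGy against A had 0 of 9859 genes past both thresholds, with 1256 (12.7%) at an unadjusted p under 0.05, and AGy against CGy had 632 of 9847, with 3173 (32.2%) at an unadjusted p under 0.05 (limma). Whether these contrasts differ in size was not tested.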

How the data were processed

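RNA of 24 NSp samples was sequenced from polyA libraries. The authors used STAR 2.6.1 to align the reads (rat build Rn7), estimated TPM per gene with Kallisto and deposited these TPM for 24 samples. The authors also deposited a table without MO2, processed with NOISeq for batch correction. Its deposited values are a score on another scale than TPM, 0.5 times the corrected TPM + 1, so each was doubled and 1 was subtracted, and corrected TPM below 0 was set to 0. Removing the 2 largest within-group components from log2(TPM + 1) gave the deposited values to within 6.73e-09 on the log2 scale. Column names are identifiers that appear in the paper's plots and not in the labels, so each column's group was read there, its single labelled sample is not known, and no samples were paired. The 7 columns of AGy and C were tested in limma 3.58.1 (R 4.3.3, moderated statistics) on log2(TPM + 1). Genes entered where the AGy or the C mean reached 1 TPM, and were called at a Benjamini-Hochberg adjusted p of at most 0.05 and at least 1.5-fold. The interaction, (AGy less A) less (CGy less C), was fitted in 4 groups. Single values per sample were compared by exact permutation. The functions were tested on simulated data. The comparison, the lists and the tests were chosen with earlier results of these data known. The rule for named genes was the largest rises and falls without overlap; its gene lists and symbols could not be used, and the 2 largest in each direction are given. Figures were drawn with matplotlib 3.10.9. TPM keep no counts, so the only measure of precision is how far samples of a group differ.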

Additional observations from a re-analysis of the deposited data

Results flagged for a closer look

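Of 60 sets of 4 sample values checked for a sample far from the others, 3 had one, and chance gives about 1 in 20. The AGy sample MO23 had 655289 TPM in the listed genes, against 643344 to 645052 TPM in the other AGy samples. The control sample MO2, which was left out, was low in genes that reached 1 TPM, with 8627 beside 9478 to 9520 in the rest of group C. ENSRNOG00000021151 was listed at 0 TPM in the CGy sample MO14B, against 163 to 180 TPM in the other CGy samples.

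The effect of radiation was tested for a difference between NSps with and without ascorbic acid. In the uncorrected values 1 of 10038 genes had an adjusted p of at most 0.05, with no fold threshold (adjusted p = 0.0276, limma), and 754 genes had an unadjusted p under 0.05. The interaction of that gene was 1.58 on the log2 scale (standard error 0.20). It had 4.74 ± 0.664 TPM in AGy, 1.5 ± 0.297 in A and 2.29 ± 0.376 in CGy (SD, n = 4 each) and 3.33 ± 0.961 in C (SD, n = 3), and its difference of AGy from C was 0.42 (adjusted p = 0.35, limma). In the corrected table, whose p-values do not account for the correction, 1126 of 10024 genes had an adjusted p of at most 0.05 (limma, no fold threshold), 314 with a higher and 812 with a lower effect of radiation under ascorbic acid.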

How the results depend on the processing

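No paired analysis was possible because the columns carry no number shared between the groups. The count of 0 genes in the uncorrected values (1304 genes with an unadjusted p under 0.05) was also 0 with MO2 included, no filter, quantile normalization, a variance trend, an adjusted p alone, and MO4 and MO21 both left out. It was 3 with a pseudocount of 0.1, 2 with rescaling to the same total of TPM, 1 with the 2 components as covariates, 123 with all 6 groups in one fit and 340 with both of these, and it lay between 0 and 3 with each sample left out: 1 without MO1, 3 without MO3 and 0 without any of the others. The p-values of the fits with the components do not account for their origin in the same samples. The corrected count of 315 was 161 on log2 of the deposited value + 1, 1219 with an adjusted p alone and 21 without MO4 and MO21. With each sample left out it lay between 136 and 276, with 136 without MO1, 136 without MO3 and 183 without MO4, and under the remaining alternatives between 227 and 376. Rescaling the corrected TPM in the same way gave 193 higher and 154 lower genes, and quantile normalization 173 and 125, against 214 and 101. The separation of 0.0578 was 0.0436 with MO2 included (exact permutation p = 0.114) and 0.0936 without MO4 and MO21, where 10 splits allow no p below 0.1 (exact permutation p = 0.1). All 4 named genes kept their direction under every alternative run. The genes were chosen for groups without overlap, so leaving out any of the 7 samples could not have changed the direction. Fits that differ only in covariates or in the estimate of spread keep the group means, so the direction was fixed there too. Chosen after seeing the data were the removal of MO4 and MO21 together, the fit of 6 groups with the components and the rescaling of the corrected TPM. The unknown depth limits what can be said of genes with low TPM.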
